A study of Mus musculus with 6 samples.

Results

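The 10 genes described here, Dusp1, Dusp4, Dusp5, Dusp6, Spry1, Spry2, Spry4, Spred1, Spred2 and Spred3, encode feedback inhibitors of the ERK branch of MAP kinase signalling. They were taken by symbol from a table of raw read counts for 24421 genes, and all 10 were abundant enough to be tested, among 12753 tested genes. RNA came from mouse endothelial cells, the lining cells of blood vessels, which were derived from brain, cultured in serum and purified by fluorescence-activated sorting. They had been kept for 6 days with a vascular niche. One group of 3 libraries carries the genotype label Fli-1 knockout, and the other group of 3 carries the label WT. The labels give the same protocol for both groups, deletion of Fli-1 alleles induced with 4-OHT, the active form of tamoxifen, a drug used to switch on recombinases, so they do not say whether the WT cells were also given 4-OHT. They do not name the recombinase, the cell type that carries it, the deleted exons, the cells of the niche, the age of the mice, or whether each library stands for its own mouse or culture. Fli1 encodes an endothelial and blood transcription factor of the ETS family. The comparison asks which transcripts of the endothelial cells differ between the genotypes.

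ERK is the last kinase of a chain that runs from growth factor receptors through Ras and Raf. Active ERK induces genes whose products then weaken the chain, so the level of these transcripts is commonly read beside ERK activity. Dusp proteins are phosphatases that remove the activating phosphates from MAP kinases, Sprouty (Spry) proteins act between the receptor and Raf, and Spred proteins, which share the Sprouty domain, hold Ras inactive at the membrane. In endothelium the chain is driven by receptors for VEGF and FGF.

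Total counts ranged from 17550185 to 21385951 per library. Fli1 itself went against the labels. It had 76.8, 111 and 77.4 CPM (reads per 1000000 of the TMM-scaled library total) in the libraries labelled knockout, against 45.3, 59.6 and 45.8 CPM in those labelled WT. The KO library was the higher one in each same-numbered pair. The edgeR test with the replicate number as a block gave a log2 fold change of 0.81 (adjusted p = 1.25e-15). Reads from exons that were not deleted would be counted too, so these values do not check the deletion. Whether the labels match the genotypes was not tested either. Every direction below is that of libraries labelled KO against libraries labelled WT. Endothelial markers were abundant in all 6 libraries, with Cdh5, the adhesion molecule of endothelial junctions, between 4432 and 5152 CPM in the KO libraries and between 4458 and 4849 CPM in the WT libraries. Of 16 endothelial markers, 2 (Emcn and Tek) were called higher and 1 (Robo4) lower in KO with the block (18.8% called, against 8.81% of all tested genes). Vwf was highest in replicate 2 of each group, at 850 CPM in KO and 815 CPM in WT. The 12 fibroblast markers summed to 143 to 1036 CPM in the KO libraries and 183 to 1434 CPM in the WT libraries, with the highest sum of each group in replicate 2. Of 13 blood cell markers in the table, 7 had 0 reads in every library, and Ptprc, the pan-leukocyte antigen, had 16 reads in all. The single tested marker of that list, Laptm5, a lysosomal membrane protein of blood cells, had 225, 109.6 and 202.5 CPM in the KO libraries, against 187, 79.4 and 167 CPM in the WT libraries, and was higher in KO in 3 of 3 pairs (log2 fold change 0.33, adjusted p = 5.36e-07 in edgeR's test with the replicate number as a block). In sorted bulk samples fewer cells of a type and less RNA per cell cannot be told apart.

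The promoter is shown for 4 of these genes. Dusp1 and Dusp6 passed as lower in the KO libraries in every form of the paired test given below. Spry1 had the most negative fold change of the 10, and Dusp5 went the other way. Each window runs from 250 bases before to 50 bases after the gene start (RefSeq, GRCm38.p6), 5′ to 3′ on the gene's strand. Capitals mark matches on either strand to the CRE half-site TGACGT, to the full CRE TGACGTCA, which contains the half-site on both strands and binds CREB, to the longer ETS motif CCGGAA, and to the CArG box, the site of serum response factor.
Dusp1, chr17:26508423-26508722, minus strand: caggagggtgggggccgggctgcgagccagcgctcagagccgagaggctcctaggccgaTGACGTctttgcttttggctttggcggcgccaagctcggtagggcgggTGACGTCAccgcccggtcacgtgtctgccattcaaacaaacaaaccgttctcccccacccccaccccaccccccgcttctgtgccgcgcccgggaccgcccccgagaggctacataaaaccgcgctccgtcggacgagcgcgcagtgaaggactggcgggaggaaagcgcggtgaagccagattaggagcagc
Dusp5, chr19:53528895-53529194, plus strand: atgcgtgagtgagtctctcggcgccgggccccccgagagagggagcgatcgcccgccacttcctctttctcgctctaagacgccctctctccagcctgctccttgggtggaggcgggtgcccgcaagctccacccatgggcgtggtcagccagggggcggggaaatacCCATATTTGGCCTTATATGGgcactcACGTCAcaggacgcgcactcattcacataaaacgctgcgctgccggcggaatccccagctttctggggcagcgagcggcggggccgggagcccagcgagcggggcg
Dusp6, chr10:99262981-99263280, plus strand: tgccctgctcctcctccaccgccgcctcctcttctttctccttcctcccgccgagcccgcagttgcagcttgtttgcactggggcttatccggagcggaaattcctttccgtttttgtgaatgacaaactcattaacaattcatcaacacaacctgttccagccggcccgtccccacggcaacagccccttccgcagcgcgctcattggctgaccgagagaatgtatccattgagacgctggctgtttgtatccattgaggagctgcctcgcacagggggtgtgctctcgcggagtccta
Spry1, chr3:37639697-37639996, plus strand: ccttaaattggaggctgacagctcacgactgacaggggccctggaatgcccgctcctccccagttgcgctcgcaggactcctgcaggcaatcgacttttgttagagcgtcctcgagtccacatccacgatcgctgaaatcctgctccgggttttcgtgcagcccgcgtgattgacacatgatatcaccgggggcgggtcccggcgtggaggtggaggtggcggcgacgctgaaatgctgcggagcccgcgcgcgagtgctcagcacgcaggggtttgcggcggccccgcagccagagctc

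The windows of these genes differ in such letters. Dusp1 holds the full CRE at position -143 and another half-site at position -191, and it was the only one of the 8 genes with a window in the table to hold the full motif, which 1.79% of 32851 promoter windows hold. Dusp5 holds 2 adjoining CArG boxes, at positions -82 and -72, and a CRE half-site at -56. The half-site occurs in 3 of the 8 windows, those of Dusp1, Dusp5 and Spred2, against 7.51% of all windows. A CArG box occurs in 1.63% of all windows and in no other window of these genes. The longer ETS motif was found in 1 of the 8 windows, that of Spry2, against 14.9% of all windows, while the ETS core GGAA occurs in all 8 and in 96.0% of windows, so it does not set these genes apart. The AP-1 motif TGANTCA was in 0 of the 8 windows and in 7.81% of all windows. The Dusp6 and Spry1 windows hold no capitals, which says only that these letters are absent from these 300 bases.

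Taken one by one, 9 of the 10 genes had a fold change below 0 and only Dusp5 had one above 0. Of all 12753 tested genes, 6514 were below 0 and 6239 above 0 in the test with the replicate number as a block. The summed level of the 10 genes was 729, 693 and 726 CPM in the KO libraries, against 839, 821 and 856 CPM in the WT libraries. Every KO library lay below every WT library in this sum. Dusp1 and Dusp6 weighed most in it, with means of 265 and 179 CPM in the KO libraries and 323 and 208 CPM in the WT libraries. For each of them alone the groups overlapped. Within same-numbered pairs, 8 of the 10 genes were lower in the KO library in 3 of 3 pairs and 1 was higher in 3 of 3, where the background was 20.2% and 20.5% of tested genes. Their median log2 fold change was -0.21, beside -0.004 for all tested genes.

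That comparison, edgeR's quasi-likelihood test without regard to replicate numbers, called 0 of the 10 genes, with Benjamini-Hochberg adjusted p values of 0.976 to 0.996. Over all 12753 genes it called 0 (0%) higher and 1 (0.00784%) lower. At an unadjusted p under 0.05 it had 3 of the 10 genes, all lower (Spry1, Spry2 and Spred3), against 2.15% of all tested genes. DESeq2 and limma-voom also called 0 of the 10. Libraries with the same replicate number deviated together, so the test was repeated with the replicate number as a block, here called the paired test. It called 7 of the 10 genes lower and 0 higher, where the background was 4.01% of tested genes lower and 4.81% higher. The 10 genes and the pathway lists described after them were chosen with earlier results of these data known, so their counts beside the background are a description and not independent evidence. Fell and rose refer to this paired test from here on. The paired test leaves 2 residual degrees of freedom, and its small p values and standard errors rest on a spread pooled across genes. DESeq2 with the same block called 2 of the 10, Dusp1 and Dusp6, and the paired test without pair 2 called the same 2 genes. Over all genes these fits called 111 and 205 lower in turn, against 511 in the paired test with all 3 pairs.

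**Figure D1:**
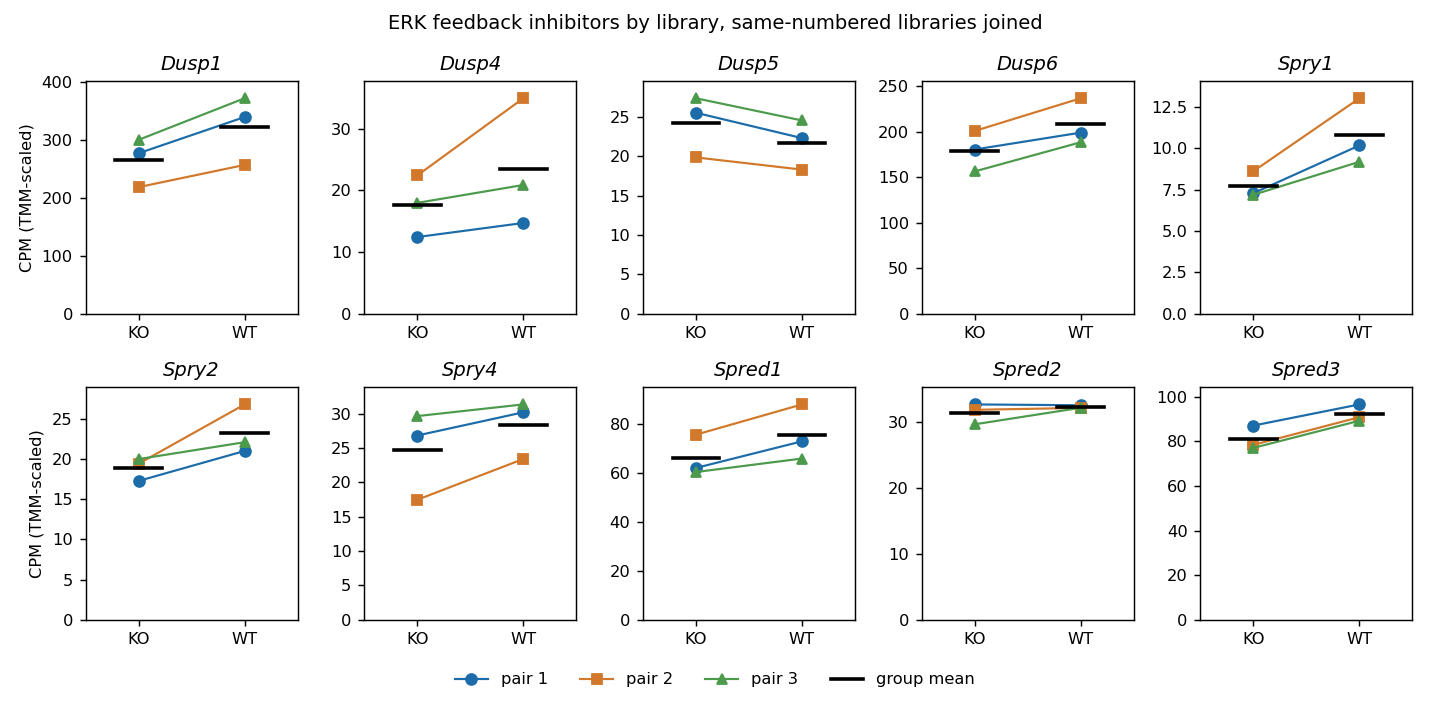
CPM of each of the 10 genes (y axis, from 0) in the libraries labelled KO (left) and WT (right), with lines joining libraries of the same replicate number and black bars at the group means. Lines run upward from KO to WT in all 3 pairs for 8 genes, downward in all 3 pairs for Dusp5, and are nearly level for Spred2.

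The phosphatases come first, each gene with its span in GENCODE M21 on GRCm38. Dusp1 (chromosome 17, 26505590 to 26562128, minus strand), a nuclear phosphatase that acts on p38 and JNK as well as ERK and is itself an immediate early gene, had 277, 218 and 300 CPM in the KO libraries, against 339, 257 and 372 CPM in the WT libraries. Its promoter positions above count from the RefSeq start, which lies inside this longer GENCODE span. The groups overlapped, because both libraries of replicate 2 were low, but the KO library was the lower one in each pair. Its log2 fold change was -0.28 ± 0.041 (SE) in the paired test, with an edgeR adjusted p of 2.77e-06, and the 3 pairs gave -0.29, -0.23 and -0.31. Without pair 2 it was -0.30 (adjusted p = 0.000113), and with DESeq2 and the block -0.28 (adjusted p = 1.65e-06).

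Dusp6 (chromosome 10, 99263231 to 99267489, plus strand), the cytoplasmic phosphatase most selective for ERK, had 181, 201 and 156.5 CPM in the KO libraries, against 199, 237 and 189 CPM in the WT libraries. Here replicate 2 was the highest of each group, the reverse of Dusp1, and again each KO library was below its WT partner. Dusp6 fell by 0.21 ± 0.042 (log2, SE; adjusted p = 0.000328 in edgeR's paired test), with -0.14, -0.24 and -0.27 in the pairs. The fold change was -0.21 without pair 2 (adjusted p = 0.0346) and -0.21 with DESeq2 and the block (adjusted p = 0.00467).

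Dusp4 (chromosome 8, 34807297 to 34819894, plus strand), a nuclear phosphatase induced by growth factors, had 12.4, 22.4 and 17.96 CPM in the KO libraries, against 14.7, 34.9 and 20.9 CPM in the WT libraries. It fell by 0.39 ± 0.084 (log2, SE; edgeR paired adjusted p = 0.00117), and pair 2, at -0.64, set much of this, beside -0.24 and -0.21 in the other pairs. Without pair 2 the log2 fold change was -0.23 and no longer passed (adjusted p = 0.312), nor did it pass with DESeq2 and the block (adjusted p = 0.115).

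Dusp5 (chromosome 19, 53529109 to 53542431, plus strand), a nuclear phosphatase that acts on ERK alone among the MAP kinases, was the exception. It had 25.5, 19.8 and 27.4 CPM in the KO libraries, against 22.3, 18.3 and 24.5 CPM in the WT libraries. The KO library was the higher one in all 3 pairs, by 0.19, 0.12 and 0.16 on the log2 scale, although the groups overlapped. The paired log2 fold change of 0.16 ± 0.073 (SE) had an unadjusted p of 0.0374 and an adjusted p of 0.205 in edgeR, so it did not pass; its 95% interval ran from 0.010 to 0.31. Whether Dusp5 differs from the other phosphatases in its response was not tested. An antisense gene on the other strand covers 547 of its exon bases (22.1%), and without strand its reads cannot be told from those of Dusp5.

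The Sprouty genes follow. Spry1 (chromosome 3, 37639947 to 37644598, plus strand) had 7.28, 8.61 and 7.19 CPM in the KO libraries, against 10.2, 13.0 and 9.18 CPM in the WT libraries. The groups did not overlap, which held for 3 of the 10 genes with KO lower and for 4.96% of all tested genes. Spry1 fell by 0.49 ± 0.11 (log2, SE; edgeR paired adjusted p = 0.00186), the most negative change of the 10, on 438 reads in the KO libraries and 667 in the WT libraries. Without pair 2 it was -0.42 (adjusted p = 0.071) and with DESeq2 and the block -0.48 (adjusted p = 0.154), and neither passed. A transcript on the opposite strand shares 710 of its exon bases (24.4%).

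Spry2 (chromosome 14, 105891947 to 105896819, minus strand), an inhibitor of receptor-driven Ras activation whose own activity depends on a phosphorylated tyrosine, had 17.3, 19.4 and 20.0 CPM in the KO libraries, against 21.0, 26.8 and 22.1 CPM in the WT libraries. The groups did not overlap here either. Spry2 fell by 0.30 ± 0.079 (log2, SE; edgeR paired adjusted p = 0.00893), with -0.28, -0.46 and -0.14 in the pairs. Without pair 2 it was -0.22 (adjusted p = 0.304), and with DESeq2 and the block -0.30 (adjusted p = 0.278).

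Spry4 (chromosome 18, 38586247 to 38601415, minus strand), which restrains VEGF signalling in endothelium, had 26.8, 17.5 and 29.7 CPM in the KO libraries, against 30.2, 23.4 and 31.4 CPM in the WT libraries. The KO library was lower in each pair, by 0.42 in pair 2 but by 0.17 and 0.08 in pairs 1 and 3 on the log2 scale. Its log2 fold change of -0.21 ± 0.072 (SE) did not pass in edgeR's paired test (adjusted p = 0.0584). It passed with scaling by library size alone (-0.24, adjusted p = 0.0279), without the filter on low counts (-0.21, adjusted p = 0.0435) and without pair 3 (-0.28, adjusted p = 0.0213), and its value without pair 2 was -0.13 (adjusted p = 0.598).

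Among the Spred genes, Spred1 (chromosome 2, 117121374 to 117182279, plus strand) binds neurofibromin and brings it to the membrane to switch Ras off. It had 62.1, 75.7 and 60.4 CPM in the KO libraries, against 73.0, 88.1 and 66.0 CPM in the WT libraries. The replicate 2 libraries were the highest of each group, and each KO library was below its partner. Spred1 fell by 0.19 ± 0.050 (log2, SE; edgeR paired adjusted p = 0.00759); without pair 2 it was -0.18 (adjusted p = 0.159), and with DESeq2 and the block -0.19 (adjusted p = 0.166).

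Spred3 (chromosome 7, 29158829 to 29170411, minus strand), a relative of Spred1 with weaker inhibitory activity, had 87.1, 78.4 and 77.1 CPM in the KO libraries, against 96.6, 90.8 and 89.3 CPM in the WT libraries. All KO libraries were below all WT libraries, and the pairs were close to each other, at -0.15, -0.21 and -0.21. Spred3 fell by 0.19 ± 0.047 (log2, SE; edgeR paired adjusted p = 0.0056); without pair 2 it was -0.18 (adjusted p = 0.137), and with DESeq2 and the block -0.19 (adjusted p = 0.115). It shares 202 exon bases (3.2%) with Ggn on the opposite strand, a gene with 435 reads in all against 10312 for Spred3.

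Spred2 (chromosome 11, 19924375 to 20024026, plus strand), which also blocks Ras signalling to Raf, had 32.7, 31.9 and 29.7 CPM in the KO libraries, against 32.6, 32.2 and 32.2 CPM in the WT libraries. The values were nearly level in pairs 1 and 2, at 0.006 and -0.013 on the log2 scale, and lower in KO in pair 3, at -0.12. The paired log2 fold change was -0.04 ± 0.064 (SE) with an edgeR adjusted p of 0.797, and its 95% interval ran from -0.17 to 0.090.

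**Figure D2:**
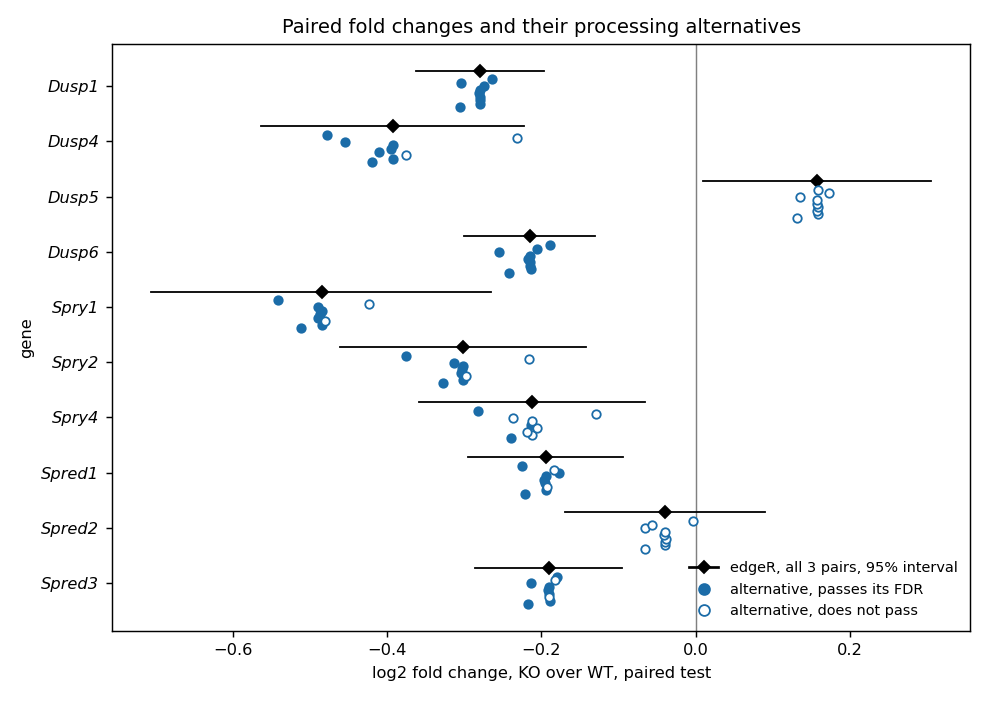
Log2 fold change, KO over WT, of the 10 genes in the paired test (black diamonds with 95% intervals) and under 9 alternatives that keep the block (circles, filled where the adjusted p passes that setting's threshold). Dusp1 and Dusp6 are filled throughout, Dusp5 lies right of 0 throughout and Dusp4, Spry1, Spry2, Spred1 and Spred3 each have 2 open circles.

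Several of the 10 genes also differed between replicate numbers, and they did so in opposite ways. Dusp1, Dusp5 and Spry4 were lowest in replicate 2 of both groups, while Dusp4, Dusp6, Spry1 and Spred1 were highest there. As a ratio, Dusp4 had the widest span, from 12.4 CPM in KO replicate 1 to 34.9 CPM in WT replicate 2. Fibroblast markers had the same replicate order as Dusp4, with sums of 143, 1036 and 470 CPM in the KO libraries and 183, 1434 and 497 CPM in the WT libraries. The KO library was the lower one in each pair for this sum as well. Of the 12 fibroblast markers 9 were tested, of which 4 fell and 1 rose; Lum and Dpt, both matrix proteins of fibroblasts, had 6 reads and 1 read in all. The 12 mural markers summed to 1446, 1885 and 1895 CPM in the KO libraries, against 1427, 2255 and 1596 CPM in the WT libraries. This sum was lower in KO in pair 2 and higher in KO in pairs 1 and 3. Tagln alone gave 1104 CPM of it in KO replicate 1 and 1048 CPM in WT replicate 1. The median log2 fold change of the tested mural markers was -0.515, -0.491 and 0.178 in pairs 1, 2 and 3. Of 10 tested mural markers 3 fell and 0 rose. The background for both marker lists was 4.01% of tested genes lower and 4.81% higher. The part of fibroblast or mural transcripts in the falls of the 7 genes was not tested.

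**Figure D3:**
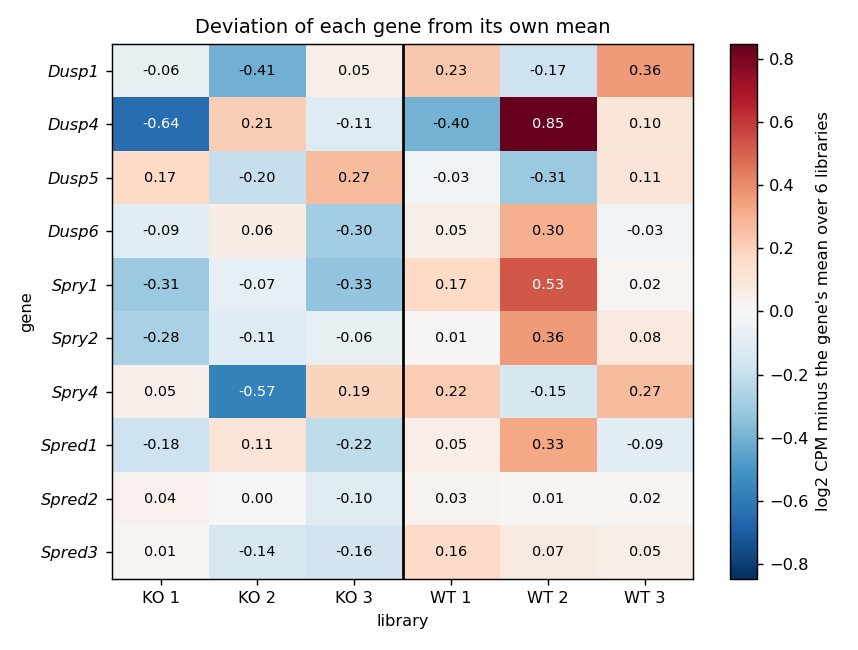
Log2 CPM of each gene minus its own mean over the 6 libraries, with the KO libraries left of the line and the WT libraries right of it. WT replicate 2 is the highest library for Dusp4, Dusp6, Spry1, Spry2 and Spred1, while KO replicate 2 is the lowest for Dusp1 and Spry4.

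Per kilobase of merged exons, the levels of the 10 genes spanned a wide range. Dusp1 averaged 80.0 CPM per kb in the KO libraries and 97.5 in the WT libraries, and Dusp6 averaged 57.3 and 66.5 CPM per kb in KO and WT libraries. The ranges of these genes did not overlap within either group. Spred3 came next, at 13.0 CPM per kb in KO and 14.8 in WT libraries. Dusp5, Spred1 and Spry2 followed, between 9.05 and 9.80 CPM per kb in KO and between 8.78 and 11.2 in WT libraries, and their ranges overlapped in the KO libraries. In the WT libraries Spred1 overlapped with the other two, while every Spry2 value lay above every Dusp5 value. Spred2, at 6.80 CPM per kb in KO and 6.99 in WT libraries, overlapped with Dusp4, at 6.42 and 8.57 in KO and WT libraries, but lay above Spry4 in both groups. Spry4 had 5.19 CPM per kb in KO and 5.96 in WT libraries, and Spry1 was the lowest, at 2.65 in KO and 3.71 in WT libraries, without overlap with Spry4.

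For each gene that fell, the 3 tested genes of at least 10 CPM with the most similar profile over the 6 libraries were listed, measured by the root mean square difference of centred log2 CPM. Dusp1 was closest to Tgfa, an EGF receptor ligand, at 0.0533. Dusp4 was closest to Phlda1, itself induced by ERK, at 0.0885, and Spry1 to Zfp36, an immediate early RNA-binding protein, at 0.0635. Spry2 was closest to Adamts1, an extracellular protease, at 0.0537, Spred1 to Klf3, a transcriptional repressor, at 0.0298, Dusp6 to Peg13, an imprinted noncoding RNA, at 0.0291, and Spred3 to Zc3hav1l at 0.021. None of the 10 genes was among the 3 closest of another, although Spry1, below that level, could not be.

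Transcripts that ERK induces, other than the 10 genes, also included falls. Of 39 tested genes of this list, 9 fell (23.1%, against 4.01% of all tested genes) and 0 rose, while 30 did not pass. The median of the list was -0.135 on the log2 scale. Whether or not they passed, 30 genes had a fold change below 0 and 9 had one above 0. Over all 12753 tested genes these counts were 6514 and 6239. Myc (0.13), Etv4 (0.09) and Etv5 (0.07) were among the 9 genes of the list above 0, and they did not pass. The 9 genes that fell were Egr1, Btg2, Fos, Junb, Ier2, Zfp36, Plk2, Jun and Ier5. Without pair 2, as with DESeq2 and the block, 7 of them still passed, all but Jun and Ier5. Several are also induced by the handling of cells during dissociation and sorting, and the part of handling was not tested.

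Egr1, a zinc finger factor induced through the Elk and serum response factors, had 74.0, 80.1 and 68.3 CPM in the KO libraries, against 154, 137 and 114 CPM in the WT libraries. Fos, the partner of Jun in AP-1, had 11.2, 11.98 and 10.7 CPM in the KO libraries, against 23.4, 23.5 and 17.4 CPM in the WT libraries. For both genes all KO libraries lay far below all WT libraries, a wider gap than for any of the feedback inhibitors. Their log2 fold changes were -0.86 ± 0.052 and -0.93 ± 0.089 (SE) in edgeR's paired test, with adjusted p values of 9.48e-15 and 2.59e-10. Junb, another AP-1 subunit, fell by 0.46, and Btg2, an antiproliferative gene also under p53, by 0.51 on the log2 scale. Ccnd1, the cyclin that links ERK to the cell cycle and the gene of the list with the most reads, had 3559, 1773 and 3696 CPM in the KO libraries, against 3403, 1573 and 3760 CPM in the WT libraries, and did not pass (0.07, adjusted p = 0.356). Klf6, the next in read number, had a log2 fold change of -0.11 (adjusted p = 0.104).

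The kinases and adaptors of the chain itself gave 0 calls among 33 tested genes, and their median was -0.011 on the log2 scale. At an unadjusted p under 0.05 in edgeR's paired test, 2 were higher and 3 were lower. Over all 12753 tested genes these counts were 1327 and 1328. DESeq2 with the block also called 0 of the 33. The lowest p values belonged to Gab1 and Frs2, adaptors below growth factor receptors, whose adjusted p was 0.11 and 0.158 in the paired test, to Braf, a Raf kinase (adjusted p = 0.163), and to Map2k2, an ERK kinase (adjusted p = 0.195). The most reads belonged to the scaffold Iqgap1, at 495 ± 31.1 CPM in the KO libraries and 481 ± 39.6 CPM in the WT libraries, and the Ras activator Rasgrp3, at 292 ± 42.9 CPM in the KO libraries and 296 ± 25.96 CPM in the WT libraries (SD, n = 3 each). Their adjusted p values were 0.624 and 0.78 in edgeR's paired test.

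Of 24 other tested brakes on Ras and ERK, 2 fell, 1 rose and 21 did not pass (12.5% called, against 8.81% of all tested genes). Nf1 encodes neurofibromin, the Ras GTPase-activating protein that Spred1 binds. It had 42.0, 48.6 and 37.3 CPM in the KO libraries, against 53.1, 53.1 and 50.2 CPM in the WT libraries. The groups did not overlap, and Nf1 fell by 0.29 ± 0.058 (log2, SE; edgeR paired adjusted p = 0.00041), also without pair 2 and with DESeq2 and the block. Socs3, a suppressor of cytokine signalling, had 27.4, 28.9 and 30.8 CPM in the KO libraries, against 31.4, 35.1 and 39.6 CPM in the WT libraries. Its log2 fold change was -0.28 (adjusted p = 0.00257), and with DESeq2 and the block it did not pass. Ptprb, the endothelial receptor phosphatase of Tie and VEGF receptors, rose by 0.20 (adjusted p = 0.00263), but not without pair 2. Lrig1, which promotes receptor degradation, had a log2 fold change of 0.15 (adjusted p = 0.0569), and Pea15a, which holds ERK in the cytoplasm, had the most reads after Ptprb, with adjusted p = 0.967.

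The other members of the dual-specificity phosphatase family did not pass: 0 of 17 tested genes were called in either direction by edgeR's paired test or by DESeq2 with the block. At an unadjusted p under 0.05 in edgeR's paired test, 1 was higher and 3 were lower, beside 1327 and 1328 of all 12753 tested genes. Their median log2 fold change was -0.074. Dusp2, a nuclear phosphatase best known from immune cells, was rare, at 0.523, 1.39 and 1.04 CPM in the KO libraries, against 0.573, 3.14 and 1.53 CPM in the WT libraries (adjusted p = 0.0849). Styx, a catalytically dead relative that binds ERK, had 5.76, 5.83 and 4.69 CPM in the KO libraries, against 6.87, 6.70 and 6.84 CPM in the WT libraries; these groups did not overlap, but the adjusted p was 0.125. Dusp14 and Dusp16, the second a JNK phosphatase, had adjusted p values of 0.13 and 0.209, and Dusp3 and Dusp11, the 2 with the most reads, of 0.589 and 0.365.

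**Figure D4:**
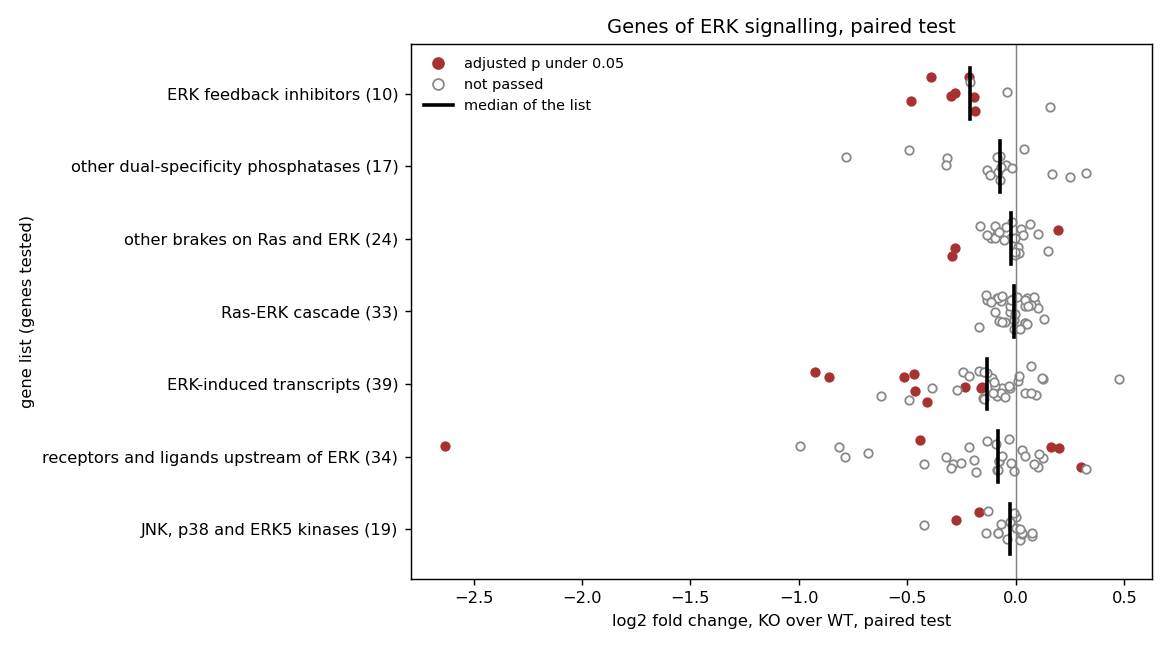
Log2 fold change, KO over WT, of the tested genes of 7 lists in the paired test, red where the adjusted p is under 0.05, with a black bar at each list's median. The feedback inhibitors (7 of 10 red) and the ERK-induced transcripts (9 of 39 red) have red points left of 0 only, the Ras-ERK cascade and the other phosphatases have no red points, and the point at -2.63 is Igf1.

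Upstream of the chain, 3 of 34 tested receptors and ligands rose and 2 fell (14.7% called, against 8.81% of all tested genes). Igf1, insulin-like growth factor, had 2.52, 2.14 and 1.74 CPM in the KO libraries, against 15.7, 11.1 and 13.3 CPM in the WT libraries, and was the 1 gene called without the block (log2 fold change -2.64 ± 0.20, SE, edgeR adjusted p = 0.0383). Met, the receptor of hepatocyte growth factor, rose by 0.30, Kitl, the ligand of Kit, by 0.20 and Tek, the angiopoietin receptor, by 0.16, where the adjusted p was 0.00172, 0.00183 and 0.0158 in turn; without pair 2 these 3 genes did not pass. Pdgfrb, a mural cell receptor, had its highest levels in replicate 2, at 53.8 CPM in KO and 81.3 CPM in WT, and fell by 0.44, but not without pair 2. Kdr, the main VEGF receptor of endothelium, had 807, 790 and 725 CPM in the KO libraries, against 837, 834 and 777 CPM in the WT libraries, and did not pass (-0.08, adjusted p = 0.265). Angpt2, the gene of the list with the most reads, had adjusted p = 0.62.

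In the JNK, p38 and ERK5 branches 2 of 19 tested genes fell and 0 rose (10.5% called, against 8.81% of all tested genes). The list's median was -0.028 on the log2 scale. Map3k2, a kinase upstream of ERK5, had 30.8, 30.0 and 26.4 CPM in the KO libraries, against 39.3, 36.4 and 30.0 CPM in the WT libraries, and fell by 0.28 (adjusted p = 0.00297). Mapk12, a p38 kinase, had 53.3, 53.6 and 53.7 CPM in the KO libraries, against 61.4, 61.3 and 57.9 CPM in the WT libraries, and fell by 0.17 (adjusted p = 0.0307), but not without pair 2. With DESeq2 and the block neither passed. Mapk11 and Mapk13, both p38 kinases, had adjusted p values of 0.177 and 0.198, and Mapkapk2 and Map3k3, with the most reads, of 0.762 and 0.779.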

How the data were processed

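The authors deposited raw read counts per gene symbol for 6 libraries, 3 labelled KO and 3 labelled WT. The submitters' processing notes list STAR 2.6.1d, Subread 1.6.4, featureCounts, FastQC 0.11.8 and Trim Galore 0.6.4, with builds mm10 and GRCm38. A stranded or a non-stranded TruSeq kit was used, per the labels' protocols; which library had which, the annotation and the strand setting are not given in these sources, so reads of overlapping genes are uncertain.

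With edgeR 4.0.16 (R 4.3.3), filterByExpr left 12753 genes, TMM scaled the libraries, and the robust quasi-likelihood test was run with Benjamini-Hochberg adjustment over all tested genes at a false discovery rate (FDR) of 0.05. Alternatives were DESeq2 1.42.0, limma 3.58.1 (voom), other scalings, no filter, an FDR of 0.01 and leaving out libraries. The edgeR, DESeq2 and limma-voom fits at their main settings, with and without the block, were also run on simulated counts. Those counts took their pair effects and spread from these data, estimated with the block. The run therefore cannot show whether the paired p values are sound, and it did not cover the other alternatives. Exact permutation tests cannot go below a two-sided p of 0.1 with 3 libraries a group, or 0.25 with 3 pairs. The p-values measure only the spread between these libraries, which may be technical.

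Same-numbered libraries were taken as pairs because their deviations from the group means had correlations of 0.776, 0.857 and 0.652; the labels state no pairing. The lowest chi-square per degree of freedom between any 2 libraries was 5.44, so none was a copy of another. Exon lengths and overlaps are from GENCODE M21 (GRCm38), promoters from RefSeq (GRCm38.p6), with windows for 8 of the 10 genes, not for Dusp4 and Spry4.

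The 10 genes and the gene lists were chosen with earlier results of these data known. Named genes were the 10, Fli1, and from each pathway list the 4 with the lowest paired p and the 2 with the highest CPM, and the gene most like each that fell. Marker genes, Pdgfrb and 5 called ERK-induced genes (Ier2, Zfp36, Plk2, Jun and Ier5) were named after their values were seen. So were Myc, Etv4 and Etv5.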

Additional observations from a re-analysis of the deposited data

How the results depend on the processing

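None of the 10 genes changed direction under any alternative, with or without the block. Some log2 fold changes came near 0, however, in fits without the block that left out 1 library. Dusp4 was at -0.021 without WT replicate 2, Spry4 at -0.004 without KO replicate 2 and Spred2 at -0.001 without KO replicate 3. Without the block the 10 genes gave 0 calls under every alternative other than the replicate block, which called 7 lower. Over all genes, DESeq2 called 12 higher and 7 lower without the block, limma-voom called 0 lower, as did an FDR of 0.01, and with the replicate block 613 were higher and 511 lower; leaving out 1 library gave 0 to 1 genes lower.

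In the paired test, DESeq2 called 262 genes higher and 111 lower, of which 2 were among the 10 genes, and an FDR of 0.01 called 388 and 259, which included 7 of the 10 genes. With 1 pair left out at a time there were 339 to 603 genes higher. The genes called lower were 527 without pair 1, 205 without pair 2 and 600 without pair 3. Of the 10 genes, 7, 2 and 8 were lower in turn. Without the block the counts were 0 higher and 1 lower, and 0 of the 10 genes. Each fit with a pair left out used 4 of the 6 libraries. The cause of these losses was not tested, neither the smaller number of libraries nor the pair left out. Dusp5 and Spred2 passed under none of the alternatives. The list counts without pair 2 and with DESeq2 and the block were chosen after seeing the data. Scaling by library size alone gave a paired median over all genes of -0.0297 on the log2 scale, against -0.00328 with TMM, and 39.1% of its calls were higher, against 54.5% with TMM; it called 8 of the 10 genes lower, the 7 and Spry4. Precision for Spry1 is limited by its 124 to 274 reads per library.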
